A study of Mus musculus with 8 samples.

Results

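The 9 mature miRNAs described here are the muscle miRNAs of the miR-1, miR-206 and miR-133 families: mmu-miR-1a-3p, mmu-miR-1a-1-5p, mmu-miR-206-3p, mmu-miR-206-5p, mmu-miR-133a-3p, mmu-miR-133a-5p, mmu-miR-133b-3p, mmu-miR-133b-5p and mmu-miR-133c (mmu, Mus musculus, is left out below). They were chosen by name, and all 9 were among the 1978 miRNAs of the count tables. The table of the ATF4 pair listed 605 miRNAs with 6 of the members, and the table of the P19 pair listed 696 miRNAs with 3 of them.

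The samples were 8 small RNA libraries from cultured mouse cells, with 1 library for each condition. C2C12 is a mouse myoblast line from skeletal muscle, and its cells carried either a hairpin RNA that targets Perk (shPerk) or a control hairpin with no target (shNC). Both were stable lines made with lentivirus and selected with puromycin, and each was sequenced at day 0 and at day 3 of culture in differentiation medium. A further pair of stable C2C12 lines carried an empty vector or an ATF4 vector, driven by the EF1α promoter, and was grown under conditions in which differentiation was not induced. P19 cells, a mouse embryonal carcinoma line, carried shNC or shPerk, and the labels give neither a day nor an induction state for them. PERK is a kinase of the endoplasmic reticulum stress response, and ATF4 is a transcription factor that acts downstream of it. The mRNAs of Perk and Atf4 were not measured by these libraries, so neither the knockdown nor the overexpression was checked in them. The study checked PERK knockdown and ATF4 overexpression by western blot of its cell lines.

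A miRNA is cut from a hairpin precursor, and either arm of the hairpin, named 5p or 3p, can be loaded into an Argonaute protein. Bases 2 to 8 of the loaded strand, the seed, pair with target mRNAs and set which mRNAs are repressed. In skeletal muscle the 3p arms of miR-1, miR-206 and miR-133 are the guide strands. miR-1 and miR-206 share a seed and are known to promote myoblast differentiation, whereas miR-133 has another seed and is known for roles in the proliferation and differentiation of myoblasts. The genes of miR-1a, miR-206, miR-133a and miR-133b lie in pairs, each with a miR-1 or miR-206 gene beside a miR-133 gene, and the myogenic factors MyoD and MEF2 are known to drive them.

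RefSeq (GRCm38.p6) gave the mature sequence of 5 of the 9 members. They are shown because the results turn on which arm and which seed was read. Bases are written 5′ to 3′, and capitals mark the seed.
miR-206-3p: uGGAAUGUaaggaagugugugg
miR-206-5p: aCAUGCUUcuuuauauccucaua
miR-1a-1-5p: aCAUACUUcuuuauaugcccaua
miR-133b-3p: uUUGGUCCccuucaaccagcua
miR-133b-5p: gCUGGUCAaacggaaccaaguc

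The seeds of these 5 sequences all differ, so the arms of a hairpin fall into separate seed groups. miR-206-5p and miR-1a-1-5p were alike at 20 of 23 positions. Counted from 1 at the 5′ end, with the miR-206-5p base first, they differed by G5A, C17G and U19C, and the first of these lies in the seed. Among the 1679 mature miRNAs of the RefSeq table, miR-6349 and miR-6382 also carried the seed of miR-206-3p, and no other miRNA carried the seed of miR-133b-3p. miR-1a-3p, miR-133a-3p, miR-133a-5p and miR-133c are named only. As background, miR-1a-3p carries the seed of miR-206-3p, and miR-133a-3p is almost identical to miR-133b-3p. The rule by which reads matching several miRNAs were counted is not given in the sources used here, so the split of reads between miR-133a-3p and miR-133b-3p is uncertain.

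The GENCODE annotation of GRCm38 places Mir206 on chromosome 1 at 20679010 to 20679082 and Mir133b at 20682769 to 20682887, both on the plus strand. These genes are 3686 bases apart, and both lie in exons of the noncoding gene Gm28653 on the same strand. On chromosome 2, Mir1a-1 lies at 180389048 to 180389124 and Mir133a-2 at 180398379 to 180398482, both on the plus strand and 9254 bases apart. Mir133c stands alone on chromosome 2, at 29475215 to 29475294 on the minus strand, opposite to the gene Med27. The mature miR-1a-3p and miR-133a-3p are also made from further gene copies, and reads on the mature miRNA cannot be told apart by copy. miR-1a-1-5p is specific to the gene Mir1a-1.

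The 4 C2C12 hairpin libraries held between 8800977 and 11993448 miRNA reads, and their levels are given as reads or as CPM (counts-per-million of all miRNA reads). For the ATF4 and P19 pairs the authors deposited RPM (reads-per-million), and from the steps between low RPM values the depth was estimated at between 4457000 and 12166500 reads. Since there was 1 library per condition, no comparison between conditions has a replicate check, and the intervals given are 95% intervals from the reads that cover counting error only. The study's methods mention no molecular identifiers to mark PCR copies, so reads cannot be taken as independent and the true error is likely larger. The 3 mesenchymal miRNAs of the marker list summed to between 33531 and 51575 CPM or RPM in the 6 C2C12 libraries, against 83.8 and 132.8 RPM in the P19 libraries. The pluripotency list, with 8 miRNAs of the clusters miR-290 and miR-302, was present in full in P19 cells, at a sum of 178757 RPM in shNC cells and 413331 RPM in shPerk cells. In the C2C12 hairpin libraries the same list summed to at most 0.353 CPM. Epithelial markers stayed under 5 CPM or RPM in C2C12 cells.

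The 9 members took 1.92% of all miRNA reads in shNC cells at day 0 and 8.88% at day 3. In shPerk cells they took 0.385% at day 0 and 2.43% at day 3. The shPerk share at day 3 thus lay between the shNC shares of day 0 and day 3. In the ATF4 pair the listed members took 0.247% with the vector and 0.380% with ATF4, and in P19 cells 0.00345% and 0.00969% with shNC and shPerk. In bulk RNA, fewer cells that express a miRNA and less of it per cell cannot be told apart.

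**Figure D1:**
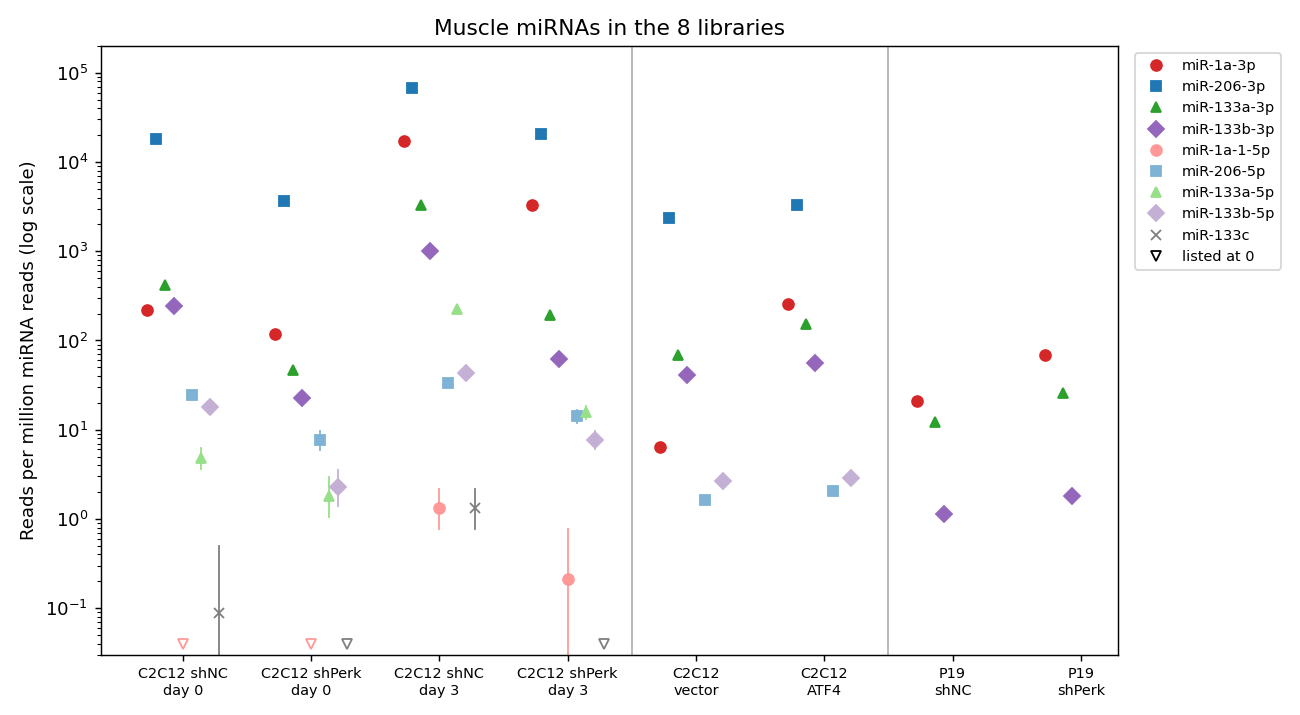
Level (CPM or RPM, log scale) of each member in each of the 8 libraries, with 95% counting intervals where read counts were deposited. Open triangles mark members listed at 0, and members that a table does not list have no point. miR-206-3p was the highest member in all 6 C2C12 libraries, from 2351 RPM with the vector to 66926 in shNC cells at day 3, and had no entry in the P19 table.

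miR-206-3p, the guide strand of miR-206, was the most abundant member in every C2C12 library. It had 206961 reads in shNC and 32128 in shPerk cells at day 0, and 802676 and 196072 reads in the same lines at day 3. Among all miRNAs it ranked 13th and 39th at day 0, and 2nd and 11th at day 3. In the vector and ATF4 libraries it was at 2351 and 3320 RPM, ranks 53 and 44. It was high in shNC cells at both days and rose in both lines by day 3, and the shPerk library at day 3 stayed below the shNC library of day 3 and slightly above that of day 0 (20796 against 18280 CPM).

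miR-1a-3p, which shares its seed, covered the widest range. It had 2487 reads in shNC and 1050 in shPerk cells at day 0, and 207393 and 30759 reads at day 3. The vector library held 6.42 RPM and the ATF4 library 259.4 RPM, and it was at 21.22 RPM in P19 shNC cells and 69.56 RPM in P19 shPerk cells. Its rank among all miRNAs went from 150 to 16 in shNC cells and from 179 to 41 in shPerk cells. The day 3 libraries were both far above the day 0 libraries, and the vector library was the lowest of the 8.

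miR-133a-3p had 4750 reads in shNC and 408 in shPerk cells at day 0, and 39096 and 1806 reads at day 3. The vector and ATF4 libraries held 69.36 and 154.0 RPM of it, and it was at 12.12 and 25.58 RPM in P19 shNC and shPerk cells. miR-133b-3p had 2789, 198, 12014 and 581 reads in the 4 hairpin libraries in the same order, 40.83 and 55.89 RPM in the ATF4 pair, and 1.14 and 1.79 RPM in P19 cells. Unlike the miR-1 and miR-206 guide strands, both miR-133 guide strands had lower levels in shPerk cells at day 3 (191.6 and 61.6 CPM) than in shNC cells at day 0 (419.5 and 246.3 CPM).

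The 5p arms were the minor arms throughout. miR-206-5p had 276, 67, 399 and 133 reads (shNC and shPerk at day 0, then at day 3), miR-133a-5p had 54, 16, 2734 and 148, and miR-133b-5p had 204, 20, 520 and 73. miR-206-5p was at 1.61 and 2.05 RPM and miR-133b-5p at 2.65 and 2.88 RPM in the vector and ATF4 libraries, where miR-133a-5p was not listed. The order of these arms changed: miR-133a-5p was the lowest of the 3 in both day 0 libraries and the highest in both day 3 libraries. In shPerk cells at day 3 its interval of 13.3 to 18.4 CPM overlapped that of miR-206-5p, 11.8 to 16.7, and at day 0 it overlapped that of miR-133b-5p. miR-1a-1-5p had 0, 0, 16 and 2 reads and miR-133c had 1, 0, 16 and 0 reads. A count of 0, taken as at most 3 reads, allowed a level of up to 0.265 CPM in shNC cells and 0.341 in shPerk cells at day 0, and 0.318 in shPerk cells at day 3. No fold change is given for these 2 members.

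In shNC cells, day 3 was compared with day 0 to describe the family during differentiation. Tests covered each miRNA that reached 1 CPM in either library, and a call needed both a log2 fold change past 1 in either direction and an adjusted p under 0.05 (exact binomial test of its reads, Benjamini-Hochberg adjustment). This test compares the libraries, not the conditions. Of 593 miRNAs tested, 12% were called higher and 14.2% lower. Of the 9 members, 8 rose and 0 fell, and these include miR-1a-1-5p and miR-133c, which passed the filter only through their 16 reads at day 3. miR-1a-3p rose 94.6-fold, miR-133a-5p 57.3-fold, miR-133a-3p 9.34-fold, miR-133b-3p 4.89-fold, miR-206-3p 4.40-fold and miR-133b-5p 2.89-fold. The largest change of a guide strand was that of miR-1a-3p, at 6.56 on the log2 scale (95% interval 6.51 to 6.62). For miR-206-3p, which was already abundant at day 0, the log2 fold change was 2.14 (2.13 to 2.14). miR-206-5p was not called, with a log2 fold change of 0.71 (0.49 to 0.94). When a coefficient of variation of 0.4 between replicates was assumed (exact test of edgeR), 3 members were called, miR-1a-3p, miR-133a-3p and miR-133a-5p.

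In shPerk cells the same comparison tested 573 miRNAs, of which 15.4% were called higher and 14% lower. All 7 members that passed the filter rose, and miR-1a-1-5p and miR-133c did not pass it. With total counts miR-206-5p had 0.89 and was not called, and under a coefficient of variation of 0.4 miR-1a-3p alone was called. miR-1a-3p rose 35.1-fold, a log2 fold change of 5.13 (5.04 to 5.22), and miR-206-3p rose 7.30-fold, a log2 fold change of 2.87 (2.85 to 2.89). miR-133a-3p rose by 2.40 (2.25 to 2.56), miR-133b-3p by 1.81 (1.58 to 2.05), miR-133a-5p by 3.46 (2.72 to 4.31), miR-133b-5p by 2.12 (1.40 to 2.92) and miR-206-5p by 1.25 (0.81 to 1.69) on the log2 scale. The family therefore rose by day 3 in PERK knockdown cells also, from lower levels.

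The size of the rise by day 3 was then set side by side for the lines, with scaling factors from the 4 libraries together. The miR-1a and miR-133 guide strands rose less in shPerk than in shNC cells, and miR-206-3p rose more. For miR-1a-3p the difference of the log2 changes, shPerk minus shNC, was -1.36 (-1.47 to -1.26), for miR-133a-3p -0.75 (-0.91 to -0.59) and for miR-133b-3p -0.41 (-0.65 to -0.16). For miR-206-3p it was 0.80 (0.78 to 0.82). The members of the miR-1 seed group thus had opposite signs. Of the 5p arms, miR-133a-5p had the most negative difference, -2.30 (-3.14 to -1.46), miR-206-5p had 0.61 (0.13 to 1.08), and that of miR-133b-5p, 0.67 (-0.08 to 1.42), included 0. Over the 544 miRNAs with more than 3 reads in all 4 libraries the median difference was 0.04, with quartiles of -0.57 and 0.69. The differences of miR-206-5p, miR-133b-5p and miR-133b-3p thus lay between the quartiles of all miRNAs. Those of miR-206-3p (0.80) and miR-133a-3p (-0.75) lay only just past them, so many other miRNAs differed as much.

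**Figure D2:**
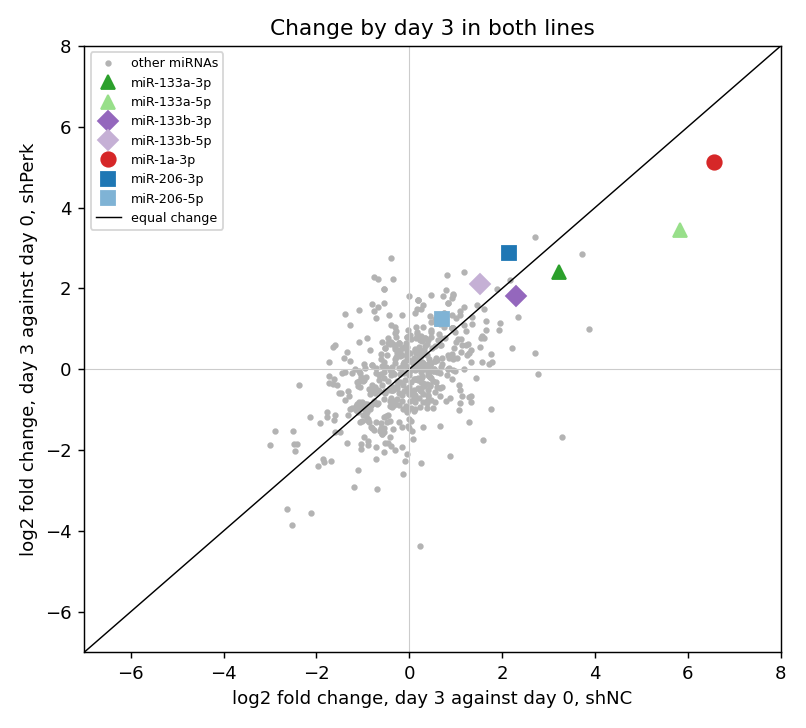
Log2 fold change from day 0 to day 3 in shNC cells (x axis) and in shPerk cells (y axis) for the 541 miRNAs tested in both lines. Coloured symbols are the 7 members with more than 3 reads in all 4 libraries, grey points the other miRNAs, and the line marks equal change. miR-1a-3p (6.56 and 5.13) and miR-133a-5p (5.84 and 3.46) lie below the line, and miR-206-3p (2.14 and 2.87) lies above it.

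PERK knockdown was compared with the control hairpin at each day. The comparisons between the lines share their libraries with the comparisons between the days, so a low level in shNC cells at day 0 or a high level at day 3 enters more than one of them. At day 0, before differentiation was induced, 602 miRNAs were tested, of which 15.4% were called higher and 18.4% lower in shPerk cells. Of the 7 members tested, 6 were lower and 0 higher. miR-133b-3p was 9.98-fold lower, miR-133a-3p 8.25-fold, miR-133b-5p 7.20-fold, miR-206-3p 4.56-fold, miR-206-5p 2.92-fold and miR-133a-5p 2.38-fold. The last of these rests on 54 and 16 reads, and its log2 fold change of -1.25 had an interval of -2.16 to -0.43. miR-1a-3p was not called, with a log2 fold change of -0.75 (-0.85 to -0.64). At a coefficient of variation of 0.4 the 3 members called were miR-133a-3p, miR-133b-3p and miR-133b-5p, and at 0.2 miR-133a-5p lost its call.

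At day 3, 575 miRNAs were tested, of which 21% were called higher and 20.7% lower in shPerk cells. Of the 9 members, 8 were lower and 0 higher, and again miR-1a-1-5p and miR-133c passed the filter only through their 16 reads in shNC cells. At a coefficient of variation of 0.4, 3 members were called, miR-133a-3p, miR-133a-5p and miR-133b-3p, so that miR-1a-3p, miR-206-3p, miR-133b-5p, miR-133c and miR-1a-1-5p lost their calls, and at 0.2 miR-1a-1-5p alone lost its call. The miR-133 guide strands fell farthest, miR-133a-3p 13.5-fold (log2 fold change -3.76, interval -3.83 to -3.69) and miR-133b-3p 12.9-fold (-3.69, -3.81 to -3.57). miR-1a-3p was 4.21-fold lower (-2.07, -2.09 to -2.06) and miR-206-3p 2.56-fold lower (-1.35, -1.36 to -1.35). By rank among the 575 log2 fold changes, from the lowest, miR-133a-3p was at 9, miR-133b-3p at 10, miR-1a-3p at 44 and miR-206-3p at 88. Thus miR-206-3p was farther below the control at day 0 (-2.19) than at day 3, and miR-1a-3p farther below it at day 3 than at day 0.

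Markers of other cells moved with the hairpin in the same libraries. miR-9-5p, which is abundant in neural cells, was at 172.8 and 2641 CPM in shNC and shPerk cells at day 0 and at 550.6 and 4044 at day 3, while miR-124-3p, the other neuronal marker, had 0 reads in all 4. miR-142a-3p, which is abundant in blood cells, had 28 and 1977 reads at day 0 and 60 and 665 reads at day 3, while miR-223-3p had at most 1 read. The marker lists summed to between 172.8 and 4044 CPM for neurons and between 2.47 and 224.6 for blood cells. Their part in the lower level of the muscle miRNAs was not tested.

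**Figure D3:**
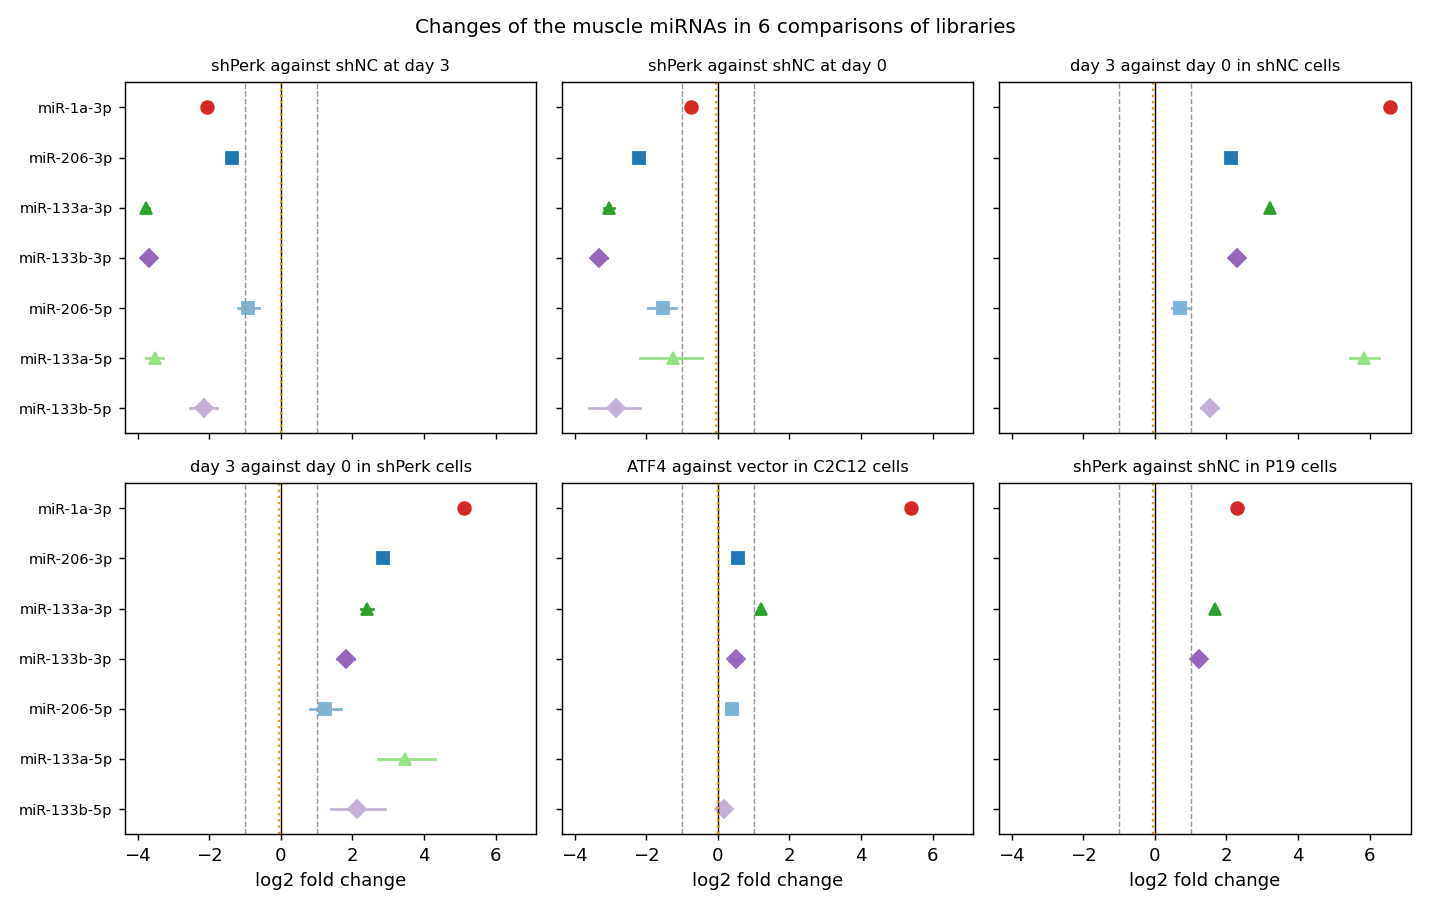
Log2 fold change (x axis) of the 7 members with more than 3 reads in every C2C12 hairpin library, in each of the 6 comparisons. Bars are 95% counting intervals, given only for the comparisons with read counts. Dashed lines mark a log2 fold change of 1 in either direction, and the dotted line the median of all miRNAs tested. All points lie below 0 for shPerk against shNC in C2C12 cells, from -3.76 for miR-133a-3p to -0.90 for miR-206-5p at day 3, and above 0 in the other comparisons, where with upper-quartile factors miR-133b-5p had -0.19 with ATF4.

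The ratio of 3p to 5p reads within a hairpin needs no scaling between libraries. In the miR-206 hairpin there were 750 reads of the 3p arm for each 5p read in shNC and 480 in shPerk cells at day 0, and 2012 and 1474 at day 3. In the miR-133b hairpin the ratio was 13.7 and 9.90 at day 0, and 23.1 and 7.96 at day 3. In the miR-133a hairpins it was 88.0 and 25.5 at day 0, and 14.3 and 12.2 at day 3. Both miR-133 ratios, and their changes below, depend on how reads matching miR-133a-3p and miR-133b-3p were divided. That rule is not given, so the ratios are uncertain beyond their counting intervals. The miR-206 ratio was thus higher at day 3 than at day 0 in both lines, and the miR-133a ratio lower.

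In shNC cells the log2 arm ratio of miR-133a changed by -2.62 (-3.01 to -2.23) from day 0 to day 3, the lowest of 171 hairpins with more than 3 reads of each arm in both libraries. That of miR-206 changed by 1.42 (1.20 to 1.65), the 6th highest, and that of miR-133b by 0.76 (0.52 to 0.998). Over the 171 hairpins the median change was 0.06, and 14% changed by more than 1 in either direction. In shPerk cells the change was -1.06 (-1.82 to -0.30) for miR-133a, 1.62 (1.20 to 2.04) for miR-206 and -0.31 (-1.07 to 0.44) for miR-133b, against 27.8% of 158 hairpins beyond 1. miR-133a-5p, the minor arm, thus rose more than its guide strand in both lines. The miR-133a arms are made from more than one gene copy, and the copies were not told apart.

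Between the lines, the arm ratio of miR-133a was lower in shPerk than in shNC cells at day 0, by a log2 change of -1.79 (-2.60 to -0.97), the lowest of 175 hairpins, of which 16% were beyond 1. At day 3 it differed by -0.23 (-0.48 to 0.02), an interval that includes 0. For miR-133b the order was the other way, with -0.47 (-1.16 to 0.23) at day 0 and -1.54 (-1.91 to -1.16) at day 3, where 35.6% of 163 hairpins were beyond 1. The miR-206 ratio differed by -0.65 (-1.03 to -0.26) at day 0 and by -0.45 (-0.73 to -0.17) at day 3. In the vector and ATF4 libraries the miR-206 ratio was 1460 and 1620 and the miR-133b ratio 15.4 and 19.4, each from few 5p reads. For miR-1a the ratio of miR-1a-3p to miR-1a-1-5p was 12962 (7982 to 22678) in shNC cells at day 3, where the 3p reads may come from every gene copy.

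**Figure D4:**
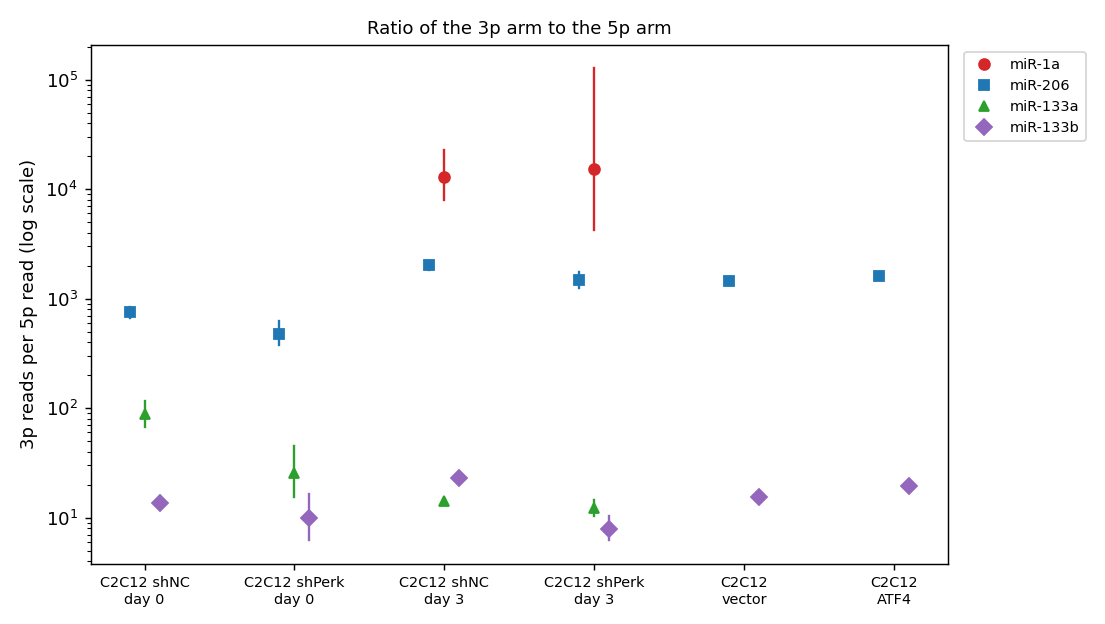
Reads of the 3p arm for each read of the 5p arm (log scale) in the C2C12 libraries, with 95% Clopper-Pearson intervals where read counts were deposited. The miR-206 ratio went from 750 to 2012 and the miR-133a ratio from 88.0 to 14.3 between day 0 and day 3 in shNC cells. Both miR-133 ratios depend on how reads matching miR-133a-3p and miR-133b-3p were divided, which is not given.

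The makeup of the seed groups shifted by day 3. In the miR-1 and miR-206 seed group, miR-1a-3p took 1.19% of the 3p reads (95% Clopper-Pearson interval 1.14 to 1.23) in shNC and 3.16% (2.98 to 3.36) in shPerk cells at day 0, and 20.5% (20.5 to 20.6) and 13.6% (13.4 to 13.7) at day 3. It took 0.272% with the vector and 7.25% with ATF4. miR-206-3p therefore supplied most of the reads of this pair in all 6 C2C12 libraries. In P19 cells miR-1a-3p alone was listed.

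Within the miR-133 guide strands, miR-133a-3p took 63.0% and 67.3% at day 0 in shNC and shPerk cells, and 76.5% and 75.7% at day 3. The intervals of the lines overlapped at day 3 (76.1 to 76.9 and 73.9 to 77.4). These intervals cover counting error only and not the uncertain split of reads that match both miR-133a-3p and miR-133b-3p. It took 62.9% with the vector, 73.4% with ATF4, and 91.4% and 93.5% in P19 shNC and shPerk cells. The sum of miR-1a-3p and miR-206-3p was 27.8 and 54.7 times the sum of miR-133a-3p and miR-133b-3p in shNC and shPerk cells at day 0, and 19.8 and 95.03 times at day 3. PERK knockdown cells thus had the higher ratio of the miR-1 seed to the miR-133 seed at both days. The ratio was 21.4 with the vector and 17.1 with ATF4.

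**Figure D5:**
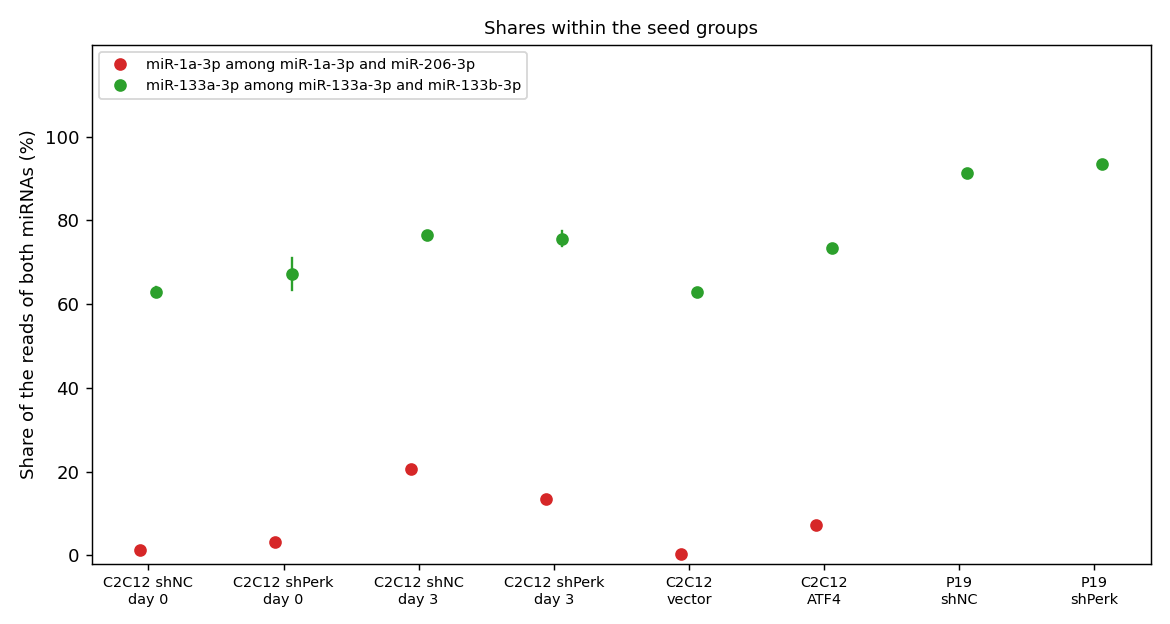
Share of miR-1a-3p in the reads of miR-1a-3p and miR-206-3p, and of miR-133a-3p in the reads of miR-133a-3p and miR-133b-3p (percent, y axis), with 95% Clopper-Pearson intervals where read counts were deposited. miR-1a-3p went from 1.19% to 20.5% in shNC cells by day 3 and stood at 7.25% in the ATF4 library. miR-206-3p was not listed for P19 cells, so the first share has no point there. The intervals do not cover the uncertain split of reads that match both miR-133a-3p and miR-133b-3p.

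ATF4 overexpression was compared with the empty vector in C2C12 cells that had not been induced to differentiate. These values are RPM, so calls rest on a log2 fold change beyond 1 alone. Of 605 miRNAs, 14.5% were called higher and 9.09% lower. Of the 6 members listed, 2 were called higher and 0 lower. miR-1a-3p was 42.1-fold higher, a log2 fold change of 5.40, the highest of the 605, and miR-133a-3p was 2.31-fold higher, at 1.21 (rank 71). With upper-quartile factors miR-133a-3p had 0.84 and was no longer called. Reads recovered from the RPM steps gave 68 and 3156 reads for miR-1a-3p, with an interval of 5.05 to 5.76, and 734 and 1874 reads for miR-133a-3p, with an interval of 1.09 to 1.33. For the other guide strands the log2 fold change was 0.56 (miR-206-3p) and 0.51 (miR-133b-3p). The 5p arms miR-206-5p (17 and 25 recovered reads) and miR-133b-5p (28 and 35) had 0.41 and 0.18, with intervals that included 0, and miR-133b-5p changed sign with upper-quartile factors (-0.19). In these libraries miR-9-5p was at 76.0 and 236.0 RPM and miR-142a-3p at 7.66 and 2.14 RPM, and their part was not tested.

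The levels of the ATF4 library stood below those of differentiated cells. miR-1a-3p, at 259.4 RPM with ATF4, was near the 219.7 CPM of shNC cells at day 0 and far from the 17292 of day 3. The vector library held 6.42 RPM, so the 2 control libraries of undifferentiated C2C12 cells, shNC at day 0 and vector, differed widely in this miRNA. They also differed in miR-206-3p, with 18280 CPM and 2351 RPM. The tables were deposited in different units and scaled apart, and the cultures differed in vector and confluence, so no test was made between them.

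In P19 cells, shPerk was compared with shNC. Of 696 miRNAs, 17.7% were called higher and 17.8% lower by the log2 fold change alone. The 3 members listed, miR-1a-3p, miR-133a-3p and miR-133b-3p, were all called higher, at 2.31, 1.67 and 1.24 on the log2 scale. The recovered reads were 168 and 310 for miR-1a-3p, with an interval of 2.03 to 2.58, and 96 and 114 for miR-133a-3p, with an interval of 1.26 to 2.08. miR-133b-3p rested on 9 and 8 reads, and its interval of -0.32 to 2.80 included 0. With total counts in place of TMM factors its log2 fold change was 0.65, which is under the limit. In the same libraries the pluripotency list took 178757 RPM with shNC and 413331 RPM with shPerk, and the neuronal list 3557 and 1459 RPM, with miR-124-3p at 197.8 and 29.6 RPM. The part of these in the higher muscle miRNAs was not tested. At most 69.6 RPM for any member, the muscle miRNAs were minor in P19 cells, and miR-206-3p was not listed.

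Over the 4 hairpin libraries, and leaving the members themselves out, the miRNA most like miR-1a-3p in the pattern of its centred log2 CPM was miR-499-5p, a muscle miRNA encoded in a myosin gene, with 61, 56, 710 and 336 reads and a Euclidean distance of 2.97 among 330 candidates. miR-128-3p, with 71475, 15760, 130599 and 22089 reads, was the nearest candidate to both miR-206-3p (1.69) and miR-133a-3p (2.52). The next for miR-1a-3p were miR-199b-5p and miR-542-3p (4.58 and 4.69), and for miR-206-3p miR-542-3p and miR-500-3p (1.76 and 1.87). For miR-133a-3p they were miR-486a-5p and miR-486b-5p (2.76 each), whose counts are identical and so cannot be told apart. Among the members, miR-206-3p and miR-133a-3p lay 1.83 apart, nearer than miR-133a-3p lay to miR-128-3p, and miR-1a-3p lay 3.53 and 3.64 from them.

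A list of 18 other muscle miRNAs (the arms of miR-499, miR-208, miR-486, miR-128, miR-378a, miR-1a-2 and miR-1b) was counted beside the family. In shPerk against shNC cells 8 of 11 tested were lower and 0 higher at day 3. At day 0, 8 of 10 were lower and 0 higher. Of all miRNAs tested, 20.7% and 18.4% were lower at these days. These counts are no independent check, since the list was chosen with earlier results of these data known. The list includes miR-128, which the study took up because it was among the most reduced with PERK knockdown. Both counts include miR-486a-5p and miR-486b-5p, which have identical counts. They also include miR-128-2-5p, with 110 and 4 reads at day 3 and 82 and 0 reads at day 0. It passed the filter only through shNC cells, as did miR-128-1-5p at day 3 (43 and 7 reads). These miR-486 arms had -2.55 and miR-128-3p -1.88 at day 3, and miR-378a-3p, encoded in a gene of mitochondrial metabolism, had -0.92 and was not called. By day 3, 3 of 11 rose and 0 fell in shNC cells, against 12% and 14.2% of all miRNAs. They were miR-499-5p (3.72), miR-128-3p (1.05) and miR-208b-3p (0 and 12 reads). In shPerk cells 1 of 9 rose, miR-499-5p (2.84), and 1 fell, miR-128-1-5p (23 and 7 reads). Of all miRNAs 15.4% rose and 14% fell there. miR-208b-3p passed the filter only through day 3 and miR-128-1-5p only through day 0, and both were named after their values were seen. The list and the family thus had different counts of risers in shNC cells, whereas most tested members of both were lower with shPerk. The lower entries of the list were all arms of miR-128, miR-378a and miR-486. miR-499-5p was not called with shPerk, at 0.37 at day 0 and -0.40 at day 3, and neither was miR-208b-3p (12 and 2 reads at day 3). With ATF4, where 14.5% of all miRNAs were called higher and 9.09% lower, 1 of 9 was called higher, miR-499-5p, which stood at 3.62 RPM with ATF4 and was listed at 0 with the vector, and 2 lower, miR-486a-5p and miR-486b-5p (-1.13). In P19 cells 1 of 9 was called higher, miR-378a-3p (1.06), and 0 lower, against 17.7% and 17.8% of all miRNAs. The median log2 fold change of the tested list was -1.43 at day 0 with shPerk, against -0.06 over all miRNAs tested. It counts both identical miR-486 rows and miR-128-2-5p with its 0 reads. No median is given at day 3, where it fell on miR-208b-3p with 12 and 2 reads.

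RefSeq (GRCm38.p6) gave a promoter window for Mir1a-1hg, the host gene of Mir1a-1, on the plus strand of chromosome 2. The window runs from upstream of the annotated start to just after it. It held the E-box CANNTG, the motif of MyoD and its relatives, at 2 places, and 72.3% of 32851 promoter windows of this length held it. The form CAGCTG, included in that motif, was found at 1 of them and in 16.3% of windows. The composite ATF4 and C/EBP element TGATGCAAT was searched on both strands and had no match here, with matches in 0.192% of windows. The cyclic AMP response element TGACGTCA also had no match, with matches in 1.79% of windows. Both elements are so rare that no match was likely in advance, so their absence does not bear on ATF4 binding. By chromatin immunoprecipitation in ATF4-overexpressing cells, the study reported ATF4 binding in the promoter region shared by miR-1a-1 and miR-133a-2. It also reported higher primary transcripts of both with ATF4. The stretches around both E-boxes are shown with the motif in capitals, since miR-1a-3p had the largest log2 fold change of the guide strands both by day 3 and with ATF4.
chr2:180385460-180385489 (133 bases before the start): cagcctcggccCAGCTGacatgctattttt
chr2:180385526-180385555 (67 bases before the start): ccgaggggggcCACTTGgccgggccgcgtg

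These matches describe the letters of this window, and these small RNA libraries do not measure binding.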

How the data were processed

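According to the study's methods, adapters were joined to the RNA ends, and cDNA was amplified and size-selected on a gel, and reads were annotated with bowtie. The submitters' processing notes name mm10 and GRCm38 as builds. The values deposited by the authors for the 4 hairpin libraries of C2C12 cells are a count of reads for each mature miRNA, without scaling. For the ATF4 and P19 pairs the authors deposited RPM values, in which the lowest value above 0 was between 1.01 and 1.12 RPM. Columns of the authors' log2 fold changes, p-values and q-values were not used.

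Members were matched by name. They and the other lists were chosen with earlier results of these data known. Counts were filtered at 1 CPM in either library and scaled with TMM factors (edgeR 4.0.16 in R 4.3.3, prior count 0.125), and reads were tested with a two-sided exact binomial test with Benjamini-Hochberg adjustment over all miRNAs of a pair. That design assumed counts throughout. For RPM, values at 0 were set to 1 RPM, TMM factors were computed on the values, and the fold limit alone was used. No fold is given against a library at or under 3 reads.

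Reads behind the RPM values were recovered from their steps, an alternative chosen after the data were seen. In the 4 RPM libraries 96.3% to 100% of values up to 20 RPM fell within 0.1 of a whole read. The step was fitted to these same values, so the 20% of a step fixed in advance is not the chance level here. The count test on the recovered reads called 122 of 540 miRNAs in the ATF4 pair and 219 of 680 in the P19 pair. Changes of arm ratios and the difference of the day 3 changes have normal intervals on the log2 scale from the reads. The scripts were tested on simulated data. Named were all members, the 3 nearest miRNAs other than members at a mean of at least 10 CPM for each of 3 guide strands, and listed muscle miRNAs beyond 1 on the log2 scale. miR-378a-3p at day 3 was named outside this rule after its value was seen.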

Additional observations from a re-analysis of the deposited data

Results flagged for a closer look

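Under the same contrast, shPerk against shNC, 3 members had opposite signs in P19 and C2C12 cells. The log2 fold change of miR-1a-3p was 2.31 in P19 cells and -0.75 and -2.07 in C2C12 cells at day 0 and day 3. That of miR-133a-3p was 1.67 in P19 cells, against -3.04 and -3.76, and that of miR-133b-3p was 1.24, against -3.32 and -3.69. In P19 cells miR-133b-3p rested on 9 and 8 recovered reads. Its interval of -0.32 to 2.80 included 0, so its sign there is uncertain. These are the 3 members that the P19 table lists. With 1 library per condition the difference between the cell lines was not tested, and the values come from tables in different units.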

How the results depend on the processing

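No paired analysis was possible because there was 1 library per condition and the labels give no replicate numbers. Of 342 log2 fold changes of single members under alternatives, 313 kept their direction and their side of the limits, 26 fell short of them, 2 passed them and 1 reversed. The reversal was miR-133b-5p in the ATF4 pair with upper-quartile factors (-0.19), a setting under which miR-133a-3p (0.84) lost its call and 1 member, miR-1a-3p, stayed called. The number of members called depended most on the spread assumed between replicates. With edgeR's exact test at a coefficient of variation of 0.4, 3 members were called for shPerk against shNC at day 3, 3 at day 0, 3 for day 3 against day 0 in shNC cells and 1 in shPerk cells, and of all miRNAs 51, 56, 7 and 1. At 0.2, 93 and 103 of all miRNAs were called for day 3 against day 0 in shNC and shPerk cells. A filter at 10 CPM left 126 calls for shPerk at day 0, 90 and 104 for day 3 in shNC and shPerk cells and 90 with ATF4. With total counts the difference of the day 3 change of miR-206-5p was 0.44, with an interval that included 0. Total counts moved the median of all miRNAs by more than 0.1, to -0.32 at day 3 and -0.19 at day 0 for shPerk. It was then -0.30 and -0.40 for day 3 in shNC and shPerk cells, and -0.65 in P19 cells. Upper-quartile factors also moved it by more than 0.1, to -0.096 at day 3 for shPerk and -0.38 with ATF4. They gave -0.15 and -0.16 for day 3 in shNC and shPerk cells, and -0.18 in P19 cells. With total counts the calls of all miRNAs split as 83 higher and 160 lower at day 3 for shPerk (121 and 119 with TMM factors). The split was 73 and 129 (93 and 111) at day 0 for shPerk. It was 48 and 129 (71 and 84) and 48 and 150 (88 and 80) for day 3 in shNC and shPerk cells. In P19 cells it was 46 and 247 (123 and 124). Upper-quartile factors gave a split of 53 and 124 (88 and 55) with ATF4. The members kept their direction under all scalings, except miR-133b-5p with ATF4. miR-206-5p in shPerk cells by day 3 was not past the limit with total counts (0.89). It was past it for shPerk at day 3 with total counts (-1.24) and upper-quartile factors (-1.01), and miR-133b-3p in P19 cells was not with total counts (0.65), with a prior count of 2 (0.86) or on recovered reads. The cause of these changes was not tested.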
